A study of Mus musculus with 4 samples.

Results

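The 5 genes described here, Mpo, Elane, Ctsg, Prtn3 and Ms4a3, are genes of the neutrophil primary granule program among the 32285 genes counted in 2 single-cell RNA-Seq libraries of mouse bone marrow. They were taken by symbol, and each matched 1 row of both count matrices. The cells were LSK cells (Lineage-negative, Sca-1-positive, cKit-positive), a sort that enriches blood stem cells and the multipotent progenitors (MPPs) they give rise to. The homeostasis library came from untreated mice. The other came from mice given 100 mg/kg 5-fluorouracil (5-FU), which is toxic to cycling blood cells, 9 days before collection. Each library mixed cells of both genotypes, wild type (Sin3B F/F) and knockout (Sin3B F/F; Vav1-iCre+). Both therefore carried the floxed Sin3B alleles on a C57BL/6 background, and the knockout also carried Vav1-iCre, a recombinase driven by a promoter active throughout the blood system. Cells of 2 mice were pooled for each genotype and library, which gave 4 pools with no replicate of any of them. The age of these mice was not found in the labels or methods. The genotype of a cell was read from its hashtag antibody, B0096 for wild type and B0157 for knockout as the study's methods state, since the labels name both genotypes for every library. Condition and library coincide, so levels were not compared between homeostasis and 5-FU.

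Primary (azurophil) granules are the first granules made by a developing neutrophil, at the promyelocyte stage, and store enzymes that kill and digest microbes. Mpo encodes myeloperoxidase, which makes hypochlorous acid. Elane, Prtn3 and Ctsg encode the serine proteases neutrophil elastase, proteinase 3 and cathepsin G, which are packed into the same granules. Ms4a3 encodes a membrane protein of granulocyte-monocyte progenitors and is used as a marker of the cells that go on to make these granules. Transcripts of granule genes are present in progenitors well before granules can be seen, so a transcript in an LSK cell does not by itself mark a neutrophil.

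The 5 genes lie on 4 chromosomes, with Prtn3 and Elane as neighbours in the same orientation on chromosome 10. Upstream of their starts, 4 short motifs were searched on both strands in the 250 bases before the RefSeq start of each gene. The first, GGAAGT, is an ETS core of the kind bound by the myeloid factor that Spi1 encodes. AACNG is a core bound by Myb. TTNNGNAA is an arrangement bound by C/EBP factors. TATAAG is a form of the TATA box. GGAAGT was present in all 5 promoters, on the strand of the gene in each, against 19.99% of 27018 mouse promoters with a match on either strand. AACNG was in 4 of 5 against 74.15% of all promoters, and TTNNGNAA in 1 of 5, that of Ms4a3, against 36.89%. TATAAG was in 2 of 5, Prtn3 and Elane, against 6.81%, and lay 32 bases before the start of Prtn3 and 31 bases before that of Elane. Both TATAAG matches, and the AACNG matches of Mpo and Elane, lie after the first base of the first exon annotated by GENCODE, which these counts do not leave out. The stretches that hold GGAAGT are shown because it was the only 1 of the 4 motifs shared by all 5 genes. They are RefSeq sequence of build GRCm38.p6, with bases of annotated exons left out, at chr11:87793534-87793580 (Mpo, plus strand), chr10:79886189-79886246 (Elane, plus), chr14:56102760-56102819 (Ctsg, minus), chr10:79879534-79879593 (Prtn3, plus) and chr19:11640887-11640946 (Ms4a3, minus). Each is written 5′ to 3′ on the strand of its gene, and capitals mark the motif, which began 222, 83, 205, 93 and 55 bases before the start in that order. A match describes these letters only, and binding was not measured.
Mpo: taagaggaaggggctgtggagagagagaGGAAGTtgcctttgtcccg
Elane: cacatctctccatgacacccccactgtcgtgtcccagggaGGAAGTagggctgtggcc
Ctsg: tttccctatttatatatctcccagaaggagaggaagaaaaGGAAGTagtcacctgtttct
Prtn3: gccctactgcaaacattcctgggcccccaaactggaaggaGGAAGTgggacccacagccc
Ms4a3: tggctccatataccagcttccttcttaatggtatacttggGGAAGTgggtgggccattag

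After hashtag calling and quality filters, the homeostasis library kept 10184 wild-type and 4108 knockout cells and the 5-FU library 4855 and 3307. Their median depths, in the same order, were 6967, 6606.5, 9306 and 10935 unique molecular identifiers (UMIs, 1 for each captured transcript). The sort markers were present, with Kit in 83.1% to 88.8% of the cells of each pool and Ly6a, which encodes Sca-1, in 39.2% to 62.1%. The level of Sin3b, the deleted gene, was lower under the knockout tag in both libraries, at 23.3 CPM (defined below) against 81.7 at homeostasis and at 15.1 against 112.7 after 5-FU. A set of 76 barcodes occurred among the cells of both libraries. Cells that carried both tags were removed, whereas doublets within a genotype could not be recognised. All intervals below are exact 95% intervals that cover counting error only. They do not cover the spread between mice, or the gathering of a gene's UMIs in few cells.

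Prtn3 was the most abundant of the 5 transcripts in every pool and Elane or Ms4a3 the least. Levels are in CPM, the UMIs of a gene scaled to an equal total in each pool. The assay reads 3′ ends, so that a transcript is counted once whatever its length. Prtn3 at homeostasis reached 393 CPM in the wild-type pool (389 to 397) and 353 in the knockout pool (346 to 360). After 5-FU it stood at 594 (588 to 601) and 476 (470 to 483). Mpo was measured at 119.9 CPM (wild type) and 75.5 (knockout) in the homeostasis library and at 104 and 45.5 in the 5-FU library. Ctsg stood at 60.8 and 30.1, and at 89.6 and 39.4. For both genes the wild-type value was the higher in each library, and the intervals of the genotypes did not overlap. Ms4a3 stood at 6.48 and 8.75 CPM at homeostasis, and at 28.9 and 27.9 after 5-FU. Elane was at 9.26 CPM in wild-type cells against 17.4 in knockout cells at homeostasis, and at 10.6 against 7.93 after 5-FU. Elane was thus the only member whose higher value fell to opposite genotypes in the 2 libraries beyond counting error, and Ms4a3 did not differ between genotypes beyond counting error after 5-FU. Of the Elane UMIs of the knockout pool at homeostasis, 1 cell held 46.6% (described below), which these intervals do not cover. In neighbouring places of the order of levels, the intervals of Mpo and Ctsg overlapped in no pool.

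**Figure D1:**
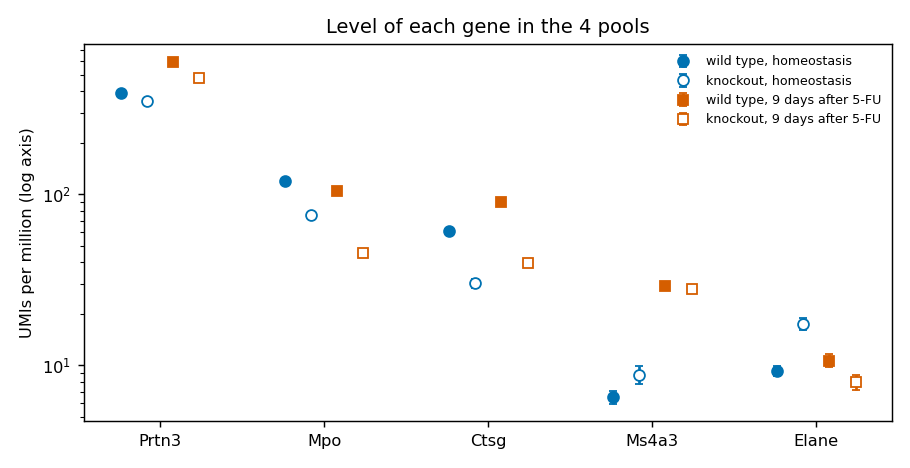
Level of each gene in CPM on a log axis, in wild-type (filled) and knockout (open) cells at homeostasis (circles) and 9 days after 5-FU (squares), with exact 95% counting intervals that are often smaller than the symbol. Prtn3 lies between 353 and 594 CPM in all 4 pools, Mpo and Ctsg are lower in knockout cells in both libraries, and Elane is higher in knockout cells at homeostasis alone.

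The share of cells with a transcript followed the levels for Prtn3, Mpo and Ctsg, whereas Elane at homeostasis was above Ms4a3 by level and below it by share. Cells were thinned to 4000 UMIs each so that depth was equal, which left out 484, 228, 512 and 170 shallower cells of the 4 pools in the order above. At that depth a Prtn3 UMI was present in 72.9% (wild type) and 69.1% (knockout) of homeostasis cells and in 78.6% and 72.7% of 5-FU cells. Mpo had one in 23.4% (22.6 to 24.3) and 14.1% (13.02 to 15.2) at homeostasis, and in 15.2% (14.2 to 16.4) and 5.52% (4.74 to 6.37) after 5-FU. Ctsg followed with 11.3% and 4.49%, and 8.87% and 4.05%. Most LSK cells therefore held Prtn3, a minority held Mpo or Ctsg, and few held Ms4a3 or Elane. Ms4a3 was seen in 2.24% and 2.35% of cells at homeostasis and 6.49% and 4.75% after 5-FU, and Elane in 2.06% and 1.34%, and in 0.9901% and 0.701%. Without thinning, the share with Mpo was 34.4% and 22.4% at homeostasis and 22.8% and 11.2% after 5-FU, and that with Prtn3 was 87.0% and 83.4%, and 88.5% and 88.9%.

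In droplet data a UMI can also come from free RNA of lysed cells, so each share was set beside that in cells expected to lack these genes. These were cells with at least 2 of 6 megakaryocyte-erythroid genes (Gata1, Klf1, Car1, Pf4, Zfpm1, Gp9) and fewer than 2 of 10 myeloid receptor genes, such as Csf3r. They were 847 cells at homeostasis and 1495 after 5-FU, with median depths of 7819 and 12747 UMIs. Their thinned share was 9.56% for Mpo at homeostasis and 3.48% after 5-FU, 4.96% and 2.21% for Ctsg, 1.89% and 0.334% for Elane, and 3.896% and 5.35% for Ms4a3. In cells of neither this gate nor the stem gate defined below, 10051 at homeostasis and 4792 after 5-FU with median depths of 7232 and 10429, Mpo was seen in 24.7% and 15.6% and Ctsg in 11.4% and 9.70%. The gate itself differed by genotype. At homeostasis Mpo in it was seen in 12.1% (wild type) against 6.23% (knockout), with levels of 54.97 against 24.9 CPM, and Ctsg stood at 28.3 against 7.55 CPM. Whether the gate measures free RNA alone was not tested. Mpo and Ctsg outside the gates were above the share in it. The receptor rule leaves cells with more myeloid receptors out of the gate, so this contrast is in part set by the gate. Ms4a3 was seen in 2.41% there at homeostasis and 6.72% after 5-FU, and Elane at homeostasis in 2.12%, which are not clearly above the shares in the gate. Elane after 5-FU, in 1.15% (0.866 to 1.49) there against 0.334% (0.109 to 0.779) in the gate, was above it. The Prtn3 share in the megakaryocyte-erythroid gate was 57.1% and 53.8%.

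To place the 5 genes in order of onset, the cells of each library were ranked by the summed UMIs of 22 other myeloid genes (among them Cebpa, Gfi1, Csf3r, Ctsc and Plac8) and divided into 20 bins of equal size. The 5 genes were not used in the ranking. As a sum of UMIs, the ranking weighs abundant genes most. In wild-type homeostasis cells Srgn stood at 797 CPM, Plac8 at 767 and Calr at 284, of 2516 for the 22 genes. Cebpa stood at 10.4 and Gfi1 at 18.1. Plac8 and Calr were also among the genes most correlated with the members (below). Prtn3 was already present in the lowest bin, and Elane was the most concentrated in the highest, although the lower 10 bins held 18.8% of its UMIs at homeostasis. Of each gene's UMIs at homeostasis, the top bin held 7.65% for Prtn3, 16.6% for Ms4a3, 20.9% for Mpo, 28.2% for Ctsg and 41.5% for Elane. After 5-FU it held 7.61%, 27.1%, 37.6%, 44.98% and 77.9% in the same order. A gene with an even level would have a share of 1 bin in 20, which Prtn3 approached. Mean UMIs of Prtn3 per 4000 went from 1.29 in the lowest to 2.35 in the highest bin at homeostasis and from 1.49 to 3.34 after 5-FU. Those of Mpo went from 0.0633 to 1.48, and from 0.0107 to 1.89, and those of Elane from 0.00884 to 0.280, and from 0 of 374 cells to 0.414.

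The order by the share in the top bin was Prtn3, Ms4a3, Mpo, Ctsg, Elane in each of the 4 pools taken alone. Ctsg and Elane were close in the wild-type pool at homeostasis, at 27.3% and 28.6%. The first bin from which a gene kept at least 25% of its top-bin level differed in part from this order at homeostasis, bin 1 for Prtn3, 14 for Mpo, 18 for Ctsg and Ms4a3, and 20 for Elane. The wild-type pool alone gave bin 13 for Ms4a3, 14 for Mpo, 16 for Ctsg and 18 for Elane, and the knockout pool bin 19 for Ms4a3 and Mpo and 20 for Ctsg and Elane, so the places of Mpo and Ms4a3 were not settled by this measure. After 5-FU these were bin 1 for Prtn3, 18 for Mpo and Ms4a3, 19 for Ctsg and 20 for Elane. By the share of UMIs in the lower 10 bins, Ctsg and not Elane came last at homeostasis, at 14.89% against 18.78%. The wild-type pool gave 20.72% for Elane, 19.75% for Mpo and 13.97% for Ctsg. The knockout pool gave 14.94%, 27.26% and 20.53% in that order. After 5-FU this share was 6.533% for Elane and 7.496% for Ctsg, but 10.53% and 10.41% in the knockout pool. Which of Ctsg and Elane came last thus depended on the measure and the pool. Ms4a3 rested on 349 thinned UMIs at homeostasis and Elane on 458, and Elane on 199 after 5-FU, so their places are the least certain. When the 10 cells with most UMIs of each gene were left out, an alternative chosen after the data were seen, the share of Elane in the top bin became 19.5% at homeostasis and 36.2% after 5-FU. Those of Ctsg were then 25.2% and 41.4%, so Ctsg and Elane changed places. With no quality filter Ms4a3, at 31.5%, and Mpo, at 23.8%, changed places at homeostasis. An even level of free RNA lowers the top-bin share of any gene, and its part in this order was not tested.

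**Figure D2:**
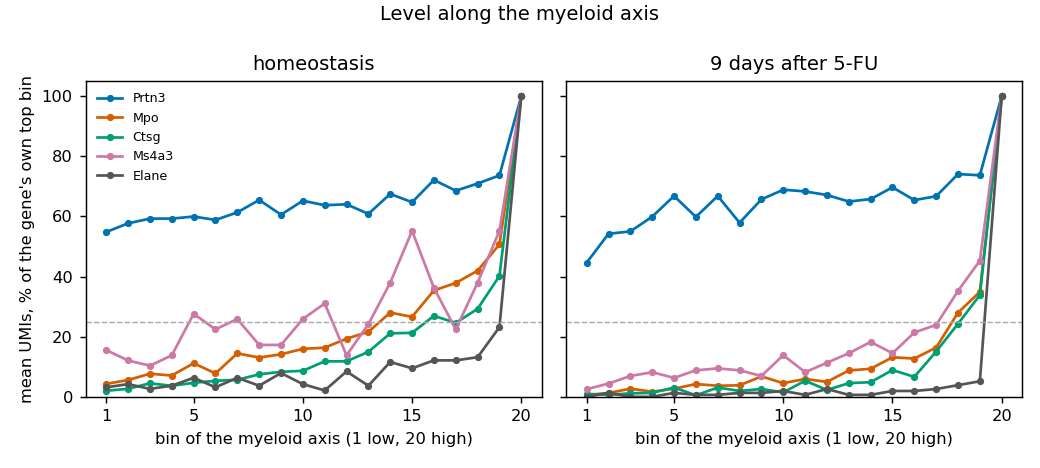
Mean UMIs of each gene at 4000 UMIs per cell in 20 equal bins of a myeloid axis built from 22 other genes, as a percentage of the gene's own top bin, for both genotypes together at homeostasis (left) and 9 days after 5-FU (right). Prtn3 starts at 54.8% and 44.6% of its top level in bin 1, whereas Mpo starts at 4.28% and 0.565% and Elane reaches 23.2% and 5.16% only in bin 19.

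The stem end of the library was examined with 9 stem cell markers (Procr, Mecom, Hlf, Mllt3, Fgd5, Slamf1, Ctnnal1, Esam, Robo4). Prtn3 was not rarer in cells with 5 or more stem markers than in cells with none, and the other 4 genes were. Among cells with none of the 9 markers, Mpo had a UMI in 44.7% at homeostasis (40.5 to 48.9) and 28.7% after 5-FU (25.6 to 31.9). Among cells with 5 or more, it had one in 6.62% (4.97 to 8.62) and 1.20% (0.442 to 2.59). Ctsg went from 30.1% to 1.95%, and from 23.2% to 1.60%. Ms4a3 went from 3.72% to 0.779%, and from 13.2% to 1.20%, and Elane from 4.43% to 1.04%, and from 2.83% to 0.400%. Prtn3 went from 68.6% (64.6 to 72.4) to 72.2% (68.9 to 75.4) at homeostasis, which did not differ beyond counting error, and from 66.1% (62.8 to 69.4) to 86.6% (83.3 to 89.5) after 5-FU.

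**Figure D3:**
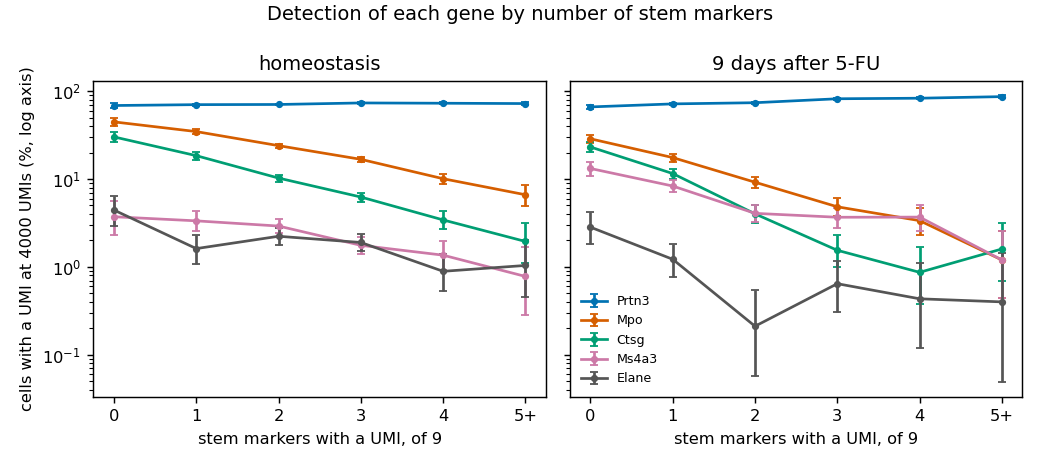
Share of cells with a UMI of each gene at 4000 UMIs per cell (log axis) by the number of 9 stem markers with a UMI, at homeostasis (left) and 9 days after 5-FU (right), with exact 95% binomial intervals. Mpo goes from 44.7% to 6.62% and from 28.7% to 1.20% as stem markers are added, while Prtn3 stays between 66.1% and 86.6%.

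Cells with at least 4 of the 9 markers were taken as a stem gate, which held 2902 cells (21.4%) at homeostasis and 1422 (19.01%) after 5-FU, with median depths of 6340 and 8802.5 UMIs. Mpo was seen in 9.17% and 2.60% of them, not above the 9.56% and 3.48% of the megakaryocyte-erythroid gate. By genotype at homeostasis, it was seen in 10.8% (9.45 to 12.3) of wild-type and 6.33% (4.95 to 7.95) of knockout stem-gate cells. The part of free RNA in these values was not tested. Ctsg, in 3.03% and 1.13%, was also below that gate in both libraries, as was Ms4a3, in 1.21% and 2.81%. Elane, in 0.930% and 0.422%, was below it at homeostasis and within its interval after 5-FU. Prtn3 was seen in 72.7% (71.0 to 74.3) and 84.3% of stem-gate cells, above the 57.1% (53.7 to 60.5) and 53.8% of the megakaryocyte-erythroid gate. Its level in the stem gate was 363 CPM at homeostasis and 697 after 5-FU, where that of Mpo was 38.7 and 15.2. In the gate after 5-FU, 65.8% of cells still passed when 2 UMIs of Prtn3 were asked for.

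The ratio of Prtn3 to Mpo differed between these sets of cells. Near-empty barcodes of the homeostasis library, those with 100 UMIs or fewer, held 2.87 Prtn3 UMIs per Mpo UMI, and cells outside both gates 3.01. Stem-gate cells held 9.36, cells with 5 or more stem markers 15.98, and the megakaryocyte-erythroid gate 5.88. After 5-FU the ratio was 5.31 outside both gates, 45.8 in the stem gate, 94.3 with 5 or more markers and 26.1 in the megakaryocyte-erythroid gate. The near-empty barcodes stood at 114.8 CPM for Mpo and 329 for Prtn3. Near-empty barcodes of the 5-FU library were not analysed here.

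Single stem markers differed in how they went with Mpo and Prtn3. At homeostasis Procr, which encodes the endothelial protein C receptor of stem cells, was seen in 8.48% of cells with Mpo and 17.0% of cells without, but in 16.1% of cells with Prtn3 and 13.3% without. After 5-FU it was seen in 10.1% of cells with Mpo and 24.5% without, and in 25.5% of cells with Prtn3 and 14.5% without. Hlf, a stem cell transcription factor, was seen after 5-FU in 75.6% of cells with Prtn3 and 52.2% without, and in 55.6% of cells with Mpo and 71.9% without. Slamf1, which encodes CD150, ran the other way for Prtn3. It was seen in 10.3% of cells with Prtn3 and 18.1% without after 5-FU. Ctnnal1 also ran the other way at homeostasis, in 4.36% of cells with Prtn3 and 5.61% without. Mllt3, in 51.7% and 51.5%, and Esam, in 9.35% and 9.53%, differed little there. At homeostasis Mecom was detected in 84.2% of Prtn3-positive cells and 82.7% of the others, so it separated few cells there. Genotype also differed between these groups of cells, as the stem gate took in 18.8% of the wild-type pool and 27.7% of the knockout pool at homeostasis.

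Apart from the pairs with Prtn3, which most cells held, Mpo and Ctsg were found together in the most cells. At homeostasis 57.3% of cells with Ctsg also held Mpo (54.5 to 60.01), against 17.0% of cells without Ctsg. After 5-FU these shares were 58.4% (54.0 to 62.7) and 7.69%. Among the few cells with Elane, 44.8% of 252 at homeostasis and 50.8% of 65 after 5-FU held Mpo, and 32.1% and 50.8% held Ctsg. In the other direction, 4.01% and 3.95% of Mpo-positive cells held Elane. The pairs with Prtn3 were the least selective. Prtn3 was in 77.9% of Mpo-positive and 70.2% of Mpo-negative cells of the homeostasis library, against 84.2% and 75.1% in the 5-FU library. Ms4a3 was in 10.3% of Elane-positive cells at homeostasis against 2.12% of the others, and in 38.5% against 5.48% after 5-FU.

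**Figure D4:**
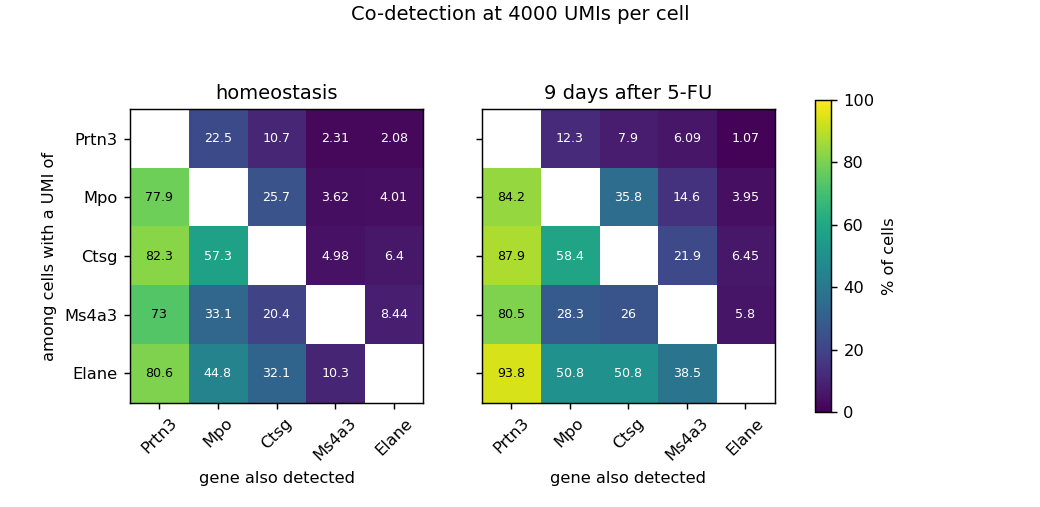
Share of cells with a UMI of the gene in the row that also hold the gene in the column, at 4000 UMIs per cell and for both genotypes together, at homeostasis (left) and 9 days after 5-FU (right). The Ctsg row shows Mpo in 57.3% and 58.4% of cells, and the Prtn3 column is above 70% in every row.

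Across cells, Pearson's r of log-normalised values was 0.39 for Mpo and Ctsg at homeostasis over 13580 cells and 0.53 after 5-FU over 7480 cells, the highest of the 10 pairs in both. The lowest was that of Ms4a3 and Prtn3, 0.03 and 0.07. These are descriptions of sparse counts from cells that share a library. Counting the 4 genes other than Prtn3, at homeostasis 2802 cells held exactly 1, 774 held 2, 70 held 3 and 21 held all 4. After 5-FU the counts were 968, 291, 71 and 20. UMIs of all 4 were thus seen in 0.155% and 0.267% of cells at 4000 UMIs each, a depth that misses transcripts and sets no limit on cells that express all 4.

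The cells with 3 or 4 of these genes, 91 in each library, also differed from the rest in other genes. Their summed stem marker UMIs per 4000 were 2.79 at homeostasis against 8.40 in the 9913 cells with none of the 4, and 0.890 against 4.95 after 5-FU in this order of groups. At least 1 of 8 division genes, such as Mki67, was seen in 84.6% of them at homeostasis and 65.9% after 5-FU, against 35.5% and 38.4% of the cells with none of the 4. Mcpt8, a protease gene of basophil progenitors, was seen in 16.5% and 14.3% of them, against 0.656% and 0.277% of the cells with none. Irf8, a monocyte and dendritic cell regulator, was seen in 17.6% and 16.5% against 5.26% and 2.35%, and Cebpe, which directs the later granules, in 5.49% of both sets. At least 1 of 11 genes of the later granules was seen in 4.40% of them at homeostasis and 15.4% after 5-FU, against 4.44% and 2.05% of the cells with none. Ltf, a defining gene of secondary granules, had no UMI in the 91 cells of either library, which, at 3 counts of 91, allows up to 3.30% of cells with a UMI at this depth and sets no limit on cells that express it. Markers of basophil and monocyte fates were thus present beside the neutrophil genes, and the part of doublets in this overlap was not tested.

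Cells with Ms4a3 but none of Mpo, Elane and Ctsg, 186 at homeostasis and 274 after 5-FU, were compared in the same way. Cpa3, the mast cell carboxypeptidase, was seen in 15.6% and 10.95% of them, against 4.97% and 4.83% of cells with none of the 4 genes. At least 1 of 10 megakaryocyte-erythroid genes was seen in 95.2% and 92.7%, against 91.7% and 95.4% of cells with none of the 4. Gata2, a factor of stem and mast cell lineages, was seen in 43.0% and 52.6%, against 33.8% and 53.6%. Irf8 was seen in 4.84% and 1.46%, against 5.26% and 2.35%. The part of free RNA in these cells was not tested.

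Between genotypes, Mpo and Ctsg were lower in knockout cells in both libraries, Prtn3 was slightly lower, and Elane and Ms4a3 had no steady direction. On the log2 scale, the ratio of knockout to wild-type CPM for Mpo was -0.67 at homeostasis (-0.73 to -0.60) and -1.20 after 5-FU (-1.27 to -1.12). For Ctsg it was -1.02 (-1.12 to -0.92) and -1.18 (-1.26 to -1.11), and for Prtn3 -0.15 (-0.19 to -0.12) and -0.32 (-0.35 to -0.29). Ratios past 0.5 in size were found for 2 of the 5 genes in the lower direction in each library, Mpo and Ctsg. Among all genes with at least 50 UMIs, 6.44% were lower by that size at homeostasis and 6.51% after 5-FU. In the higher direction it was 1 gene at homeostasis, Elane at 0.91 (0.75 to 1.07), against 6.89% of all genes, and none after 5-FU, against 4.89%. After 5-FU the ratio of Elane was -0.42 (-0.62 to -0.23). The ratio of Ms4a3 was 0.43 (0.22 to 0.64) in the homeostasis library and -0.05 (-0.16 to 0.06) in the 5-FU library. The sum of the 5 genes had a ratio of -0.28 and -0.47, and the sum without Prtn3 -0.58 and -0.95. With the level of each genotype's own megakaryocyte-erythroid gate subtracted, a setting chosen after the data were seen, the homeostasis ratios were -0.36 for Mpo, -0.53 for Ctsg, 0.17 for Prtn3, 0.03 for the sum and -0.16 for the sum without Prtn3. The direction of Prtn3 and of the sum at homeostasis thus depended on this setting. After 5-FU it gave -1.19 for Mpo, -1.16 for Ctsg and -0.30 for Prtn3. With 1 pool per genotype in a library these ratios have no replicate check.

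A Mpo or Ctsg UMI was seen in a smaller share of knockout cells at 4000 UMIs each. In the megakaryocyte-erythroid gate these shares also differed by genotype. For Mpo they were 12.1% (wild type) and 6.23% (knockout) at homeostasis and 5.50% and 1.56% after 5-FU, and for Ctsg 6.90% and 2.44%, and 2.75% and 1.69%. The thinned share of cells with Mpo in the knockout was 0.602 times that in the wild type at homeostasis and 0.362 times after 5-FU. For Ctsg it was 0.398 and 0.457 times, and for any of the 4 genes other than Prtn3 0.619 and 0.494 times, at 18.8% against 30.3% and at 11.3% against 22.9%. For Elane it was 0.650 times at homeostasis, although its level was higher there. After 5-FU it was 0.708 times, from 43 wild-type and 22 knockout cells, which did not differ beyond counting error. For Prtn3 the share was 0.948 and 0.925 times, and for Ms4a3 1.05 and 0.732 times.

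The Elane level at homeostasis rested on single cells. In the knockout pool 1 cell with 19875 UMIs held 710 UMIs of the 5 genes, of which 259 were Elane, 184 Prtn3, 130 Mpo, 103 Ctsg and 34 Ms4a3. It held 46.6% of all Elane UMIs of that pool, together with 836 UMIs of S100a8 and 425 of S100a9, genes of later neutrophil stages. Without the highest cell of each genotype the Elane ratio was 0.12 (-0.08 to 0.31), and without the 10 highest -1.14 (-1.48 to -0.83). The 10 highest cells held 82.9% of Elane UMIs in this pool and 28.8% in the wild type, and 76.3% and 84.1% in the wild-type and knockout pools after 5-FU. Mpo and Ctsg did not depend on such cells for their direction. Without the 10 highest cells Mpo and Ctsg had ratios of -0.92 and -1.55 in the homeostasis library and -1.66 and -1.52 in the 5-FU library. These removals were chosen after the data were seen.

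**Figure D5:**
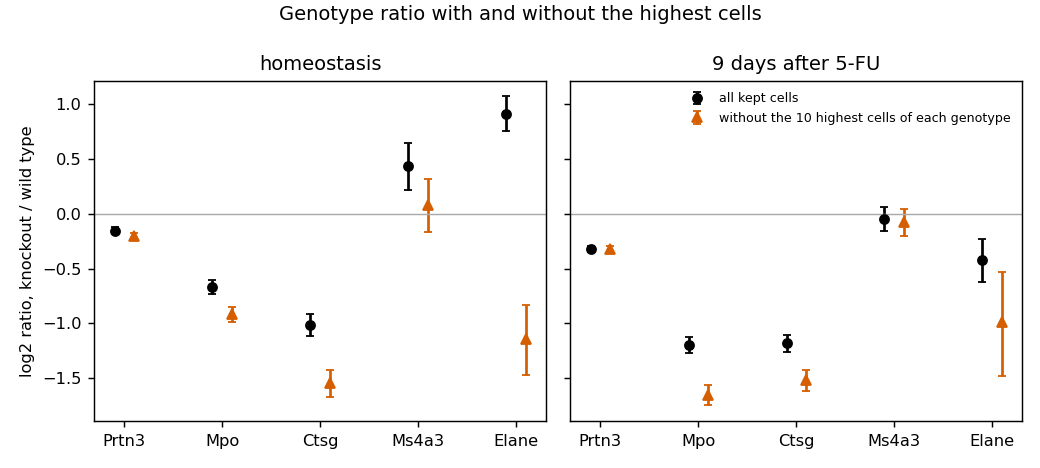
Log2 ratio of knockout to wild-type CPM for each gene at homeostasis (left) and 9 days after 5-FU (right), over all kept cells (circles) and without the 10 cells of each genotype with most UMIs of the gene (triangles), with exact 95% counting intervals. Mpo and Ctsg lie below 0 in all cases, and Elane at homeostasis goes from 0.91 to -1.14.

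The quality filter of the study, which drops the 2% of cells with most UMIs or genes, also removed cells rich in these transcripts. Without it Elane was at 29.4 CPM (wild type) and 26.04 (knockout) in the homeostasis library, and at 18.9 and 27.02 in the 5-FU library. The ratio of the sum without Prtn3 was then -0.63 at homeostasis and -0.23 after 5-FU, and that of Elane -0.17 and 0.52. That of Ms4a3 after 5-FU was 0.58, at 35.2 against 52.6 CPM. Mpo without the filter was at -0.65 and -0.63 and Ctsg at 73.7 and 38.4 CPM, and 111.5 and 86.9 CPM, so both stayed lower in the knockout.

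Along the axis of 22 myeloid genes, which include Plac8 and Nkg7, both called lower in the knockout by edgeR (below), knockout cells lay lower. The lower 10 bins took up 63.2% of the knockout and 44.7% of the wild-type pool at homeostasis, and 56.8% against 45.1% after 5-FU. The top bin held 2.68% (104 cells) against 5.93% (575), and 3.57% (112) against 6.03% (262). On an axis without Plac8 and Nkg7, chosen after the data were seen, the lower 10 bins took up 54.4% (knockout) against 48.3% (wild type) at homeostasis and 51.2% against 49.1% after 5-FU, and the top bin 4.64% against 5.14%, and 4.69% against 5.23%. As both genes were lower in the knockout, leaving them out narrows the gap by itself. What the gap rested on was not tested. Of 21 axis genes with at least 50 UMIs, 3 were lower and 4 higher by a log2 size of 0.5 at homeostasis, and 6 lower and 0 higher after 5-FU, with median ratios of -0.00041 and -0.09. On the axis of 22 genes, within the lower 10 bins, the ratio was -0.88 for Mpo (-1.10 to -0.67) and -1.21 for Ctsg at homeostasis, and -1.78 and -0.94 after 5-FU. In the top bin Mpo stood at 1.91 UMIs per 4000 in knockout and 1.40 in wild-type cells at homeostasis, a ratio of 0.45 (0.22 to 0.68). After 5-FU it stood at 1.66 and 1.99, a ratio of -0.26 (-0.51 to -0.02). The top-bin ratio of Ctsg was 0.16 (-0.17 to 0.47) in the homeostasis library, within counting error of 0, and -0.40 (-0.68 to -0.14) in the 5-FU library. The shares of top-bin cells with Mpo were 54.8% in knockout and 50.8% in wild-type cells at homeostasis and 42.0% and 54.2% after 5-FU. With both genotypes given the same share of cells in each of the 20 bins, the ratio of the sum without Prtn3 moved to -0.22 at homeostasis and -0.70 after 5-FU. That of Mpo moved to -0.31 and -0.93, and that of Ctsg to -0.64 and -0.75. On the axis without Plac8 and Nkg7 the same setting gave -0.73 and -1.11 for the sum without Prtn3, -0.77 and -1.36 for Mpo and -1.20 and -1.19 for Ctsg. Both settings used thinned cells. In these the homeostasis ratio without equal shares was -0.81 for the sum without Prtn3 and -0.85 for Mpo. Against those values, the move toward 0 at homeostasis was smaller on the axis without Plac8 and Nkg7, which is in part set by the choice of the genes left out.

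Each cell was also given the LSK class, LT-HSC or ST-HSC (long- and short-term stem cells) or MPP2, MPP3 or MPP4, whose published signature scored highest, with the 5 genes taken out of the signatures. The share classed as LT-HSC was 17.99% (wild type) and 39.95% (knockout) at homeostasis, and 16.9% and 32.3% after 5-FU. Mpo was highest in MPP3, the myeloid-biased class, at 186 CPM (wild type) and 178 (knockout) in the homeostasis library and 209 and 137 in the 5-FU library. It was lowest in the LT-HSC class, at 22.7 and 19.3, and 5.65 and 3.06. Prtn3 in that class stood at 392 and 329 CPM, and 648 and 508. This was above its level in MPP2 (334 and 249, and 317 and 245) but below its level in MPP3 in each pool. By the gates above, Prtn3 at homeostasis stood at 362.5 CPM in the stem gate and 395.8 outside both gates, and after 5-FU at 697 and 606.3. In ST-HSC the Mpo ratio was -0.53 (-0.68 to -0.37) at homeostasis and -1.68 (-1.88 to -1.48) after 5-FU, and that of Ctsg -1.09 and -1.78. In MPP2 the Ctsg ratio was -1.48 and -2.21, in MPP4 -0.98 and -0.66 and in MPP3 -0.20 and -0.52. In LT-HSC the Ctsg ratio was -0.54 (-1.02 to -0.07) at homeostasis and -0.23 (-1.13 to 0.71) after 5-FU, the latter within counting error of 0. That of Mpo in LT-HSC was -0.23 (-0.50 to 0.04) at homeostasis, within counting error of 0. After 5-FU it was -0.88 (-1.62 to -0.15), from 38 wild-type and 30 knockout UMIs. In MPP3 Mpo stood at -0.06 (-0.16 to 0.04) at homeostasis, which is within counting error, and at -0.61 (-0.71 to -0.51) after 5-FU.

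The genotypes were compared across both libraries with edgeR's quasi-likelihood test on summed counts, with the library as a block, over 17202 genes. This design has n = 2 pools per genotype and 1 residual degree of freedom. Mpo, at a log2 fold change of -0.92 (adjusted p = 0.0158, Benjamini-Hochberg), and Ctsg, at -1.09 (adjusted p = 0.00369), fell in the knockout by edgeR's test, each lower in 2 of 2 libraries. They are 2 of 5 members, where 0.849% of all genes were called lower and 0.965% higher. Prtn3 (-0.23, adjusted p = 0.296), Elane (0.27, adjusted p = 0.753) and Ms4a3 (0.18, adjusted p = 0.635) did not pass edgeR's threshold of 0.05. Over the 7 other settings of this test, the adjusted p of Mpo in edgeR or DESeq2 ran from 1.80e-05 to 0.0505, and that of Ctsg from 2.37e-12 to 0.157. Mpo missed the threshold without lineage removal, and Ctsg missed it without the quality filter. Fewer Mpo-bearing cells and less Mpo in each cannot be told apart by this test, which sees only sums.

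The wider primary granule set was described by its counts. Of 20 further genes of primary granules and lysosomes, 19 were tested, with 1 lower, 1 higher and a median log2 change of 0.04 in edgeR, against 0.849% lower, 0.965% higher and 0.00 over all genes tested. The lower gene was Nkg7, a granule membrane protein of cytotoxic and myeloid cells, at 103.6 CPM (wild type) and 68.8 (knockout), and 172.5 and 108 in the 5-FU library (edgeR, -0.62, adjusted p = 0.0153). Cst7, an inhibitor of granule cathepsins, stood at 16.6 and 11.7, and 13.2 and 8.55 CPM (-0.56, edgeR adjusted p = 0.0655), which missed the threshold. The higher gene was Hexa, a lysosomal hexosaminidase, at 0.49 (edgeR adjusted p = 0.04996), chosen after its value was seen. Srgn, the proteoglycan that holds granule proteins, was at 797 and 723, and 1210.0 and 1196 CPM, and Cd63, a granule membrane protein, at 165 and 190.2, and 251 and 251 CPM. Neither passed the test.

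Genes of the later granules were rare. Of 11, 6 could be tested in edgeR, with 1 called, Lcn2 (neutrophil lipocalin), higher at 1.64 (adjusted p = 0.0257), while DESeq2 called 0. Its homeostasis level was 0.386 CPM (wild type) against 1.16 (knockout), from 32 and 37 UMIs, and its 5-FU level 1.11 against 3.51. S100a8 stood at 5.19 and 33.0 CPM at homeostasis and 2.69 and 1.70 after 5-FU. The 836 UMIs of the cell described above are most of its 1053 in the knockout pool at homeostasis. None of 10 myeloid transcription factors passed edgeR's test, with 1 under an unadjusted p of 0.05 (Irf8) and 0 called by DESeq2. Over all genes tested, 2425 of 17202 were under an unadjusted p of 0.05 in edgeR. Irf8 stood at 25.5 and 18.7, and 15.2 and 10.3 CPM (-0.49, edgeR adjusted p = 0.0694), and Myb at 379 and 376, and 529 and 386. Of 10 myeloid receptors, Il1r1, the interleukin-1 receptor, was lower (-0.80, edgeR adjusted p = 0.00940), at 79.7 and 48.3, and 30.6 and 16.4 CPM, and 9 were not called.

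Genes of other cell types also differed between the genotypes, and their part in the Mpo and Ctsg ratios was not tested. Of 5 mast cell, basophil and eosinophil genes tested, 1 was lower in edgeR (Fcer1a), and their summed level was 36.2 CPM (wild type) against 20.7 (knockout) at homeostasis and 42.9 against 26.3 after 5-FU. Epx and Prg2, defining genes of eosinophils, had no UMI in the cells with 3 or 4 of the genes other than Prtn3. Epx was seen in 0.0101% and 0.0% of cells with none of the 4, and Prg2 in 0.0404% and 0.147%. Both were thus too rare in these libraries for their lack of UMIs to describe those cells. Of 10 megakaryocyte-erythroid genes 3 were higher in edgeR, with a summed level of 759 and 875, and 1164 and 1508 CPM. Of 8 lymphoid genes tested, 2 were lower, with summed levels of 807 and 598, and 248 and 142 CPM. Of 9 stem cell genes 2 were higher (Mllt3 and Slamf1), with 1658 and 2075, and 926 and 965 CPM. None of 9 monocyte and dendritic cell genes was called by edgeR, and 0 by DESeq2. In edgeR 2 of them were under an unadjusted p of 0.05, against 2425 of the 17202 genes tested. Their summed levels were 76.4 CPM in both genotypes at homeostasis and 78.6 and 57.5 after 5-FU.

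The genes most like the members across single cells were named by the lowest of their correlations in the 4 pools, among 7582 genes. For the sum of the 5 genes these included Plac8, H2afy, Ccl9, Ifitm1, BC035044, Calr, Cd48, Rplp1 and Tyrobp. Plac8, a gene of myeloid and lymphoid progenitors, led for Mpo (r of 0.27 to 0.34), for Ctsg (0.185 to 0.292) and for Elane (0.07 to 0.11). Ccl9, a chemokine of myeloid cells, was next for Ctsg (0.17 to 0.31). Prtn3 had other company, led by Ifitm1 (0.19 to 0.42), an interferon-induced membrane protein, Rplp1 and Pim1. Ms4a3 was led by Cpa3 (0.08 to 0.11), H2afz and Ptma. Plac8 itself was lower in the knockout in edgeR (-0.69, adjusted p = 0.0138), at 767 and 450 CPM at homeostasis and 643 and 414 after 5-FU. All of these correlations are weak, come from cells that share a library, and are given as a description.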

How the data were processed

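LSK cells of 2 libraries, with cDNA and hashtag reads of each, were analysed from the UMI counts per gene and barcode that the authors deposited, which they had made with Cell Ranger (10x Genomics 3′ v3 chemistry). The headers name different Cell Ranger versions for the 2 libraries, and the submitters' processing notes name build mm9. Gene names came from the feature list of the 5-FU library, and its row order was checked for the homeostasis library by the correlation of gene totals (r = 0.926, and at most 0.395 with rows shifted). No column of per-sample values was left unmapped.

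The homeostasis matrix held 6794880 barcodes, of which 23931 with at least 2921 UMIs were taken as cells. The 5-FU matrix held 12753. HTODemux of Seurat 5.3.0 (positive quantile 0.99) called 11579 wild-type and 4628 knockout cells, 1441 doublets and 6283 negatives at homeostasis, and 5302, 3727, 434 and 3290 after 5-FU. As in the methods of the study, singlets were kept and the top and bottom 2% for UMIs, genes and mitochondrial share removed. Cells with at least 2 UMIs of 9 lineage genes were also removed, where the study removed cells with any. The study also left out cells with genes of biased or primed stem cells, a step not applied here. The settings by which the study arrived at its own number of cells were not given in full, and it kept fewer cells of both libraries than were kept here. No doublet caller was run beyond the hashtags.

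Counts were summed by pool, thinned to 4000 UMIs per cell for shares, and compared by ratios with 0.5 added to each count and exact 95% intervals. Ratios were called at a log2 size of 0.5 among genes with at least 50 UMIs. edgeR 4.0.16 (quasi-likelihood, TMM, library as a block) was the test over both libraries and DESeq2 1.42.0 its alternative. Since labels say nothing of separate cultures or mice within a pool, p-values do not measure the spread between mice. With 1 pool per genotype and library, the residual of this test is the difference of the genotype ratio between the 2 libraries, moderated across genes. The edgeR fit and the measure of order were also run on simulated data to check the code, which lends no weight to the results here. The 5 members and all gene lists were chosen with earlier results of these data known. Named beside the members were the genes most correlated with them and, of each list, the 2 with the highest level and the 2 with the largest ratio. Other genes were named only where a call fell on them, and 1 correlated gene is not reported here. Promoters and sequences came from RefSeq, build GRCm38.p6, and coordinates were not converted to the build of the labels. R 4.3.3, Python 3.11.15, numpy 2.4.6, scipy 1.17.1 and matplotlib 3.10.9 were used. Alternatives changed the thinning, gates, tag calling, filters, scaling and the cells included.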

Additional observations from a re-analysis of the deposited data

Results flagged for a closer look

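The genotype ratio of Elane went opposite ways in the 2 libraries. Its log2 ratio of knockout to wild type was 0.91 at homeostasis and -0.42 after 5-FU, a gap of 1.34 with 1 pool per genotype on each side. The ratios of Ms4a3 were 0.43 and -0.05, a gap of 0.48, and the latter was within counting error of 0. Among cells of the top bin of the myeloid axis, the ratios of Mpo were 0.45 and -0.26 (a gap of 0.71), those of Elane 2.71 and -0.29 (2.99), those of Ctsg 0.16 and -0.40 (0.56) and those of Prtn3 0.50 and -0.10 (0.60). None of these differences between libraries was tested, since condition and library coincide and each has no replicate. The knockout cell with 259 Elane UMIs lies behind the Elane value at homeostasis, as described above. That cell also held 130 Mpo, 184 Prtn3 and 103 Ctsg UMIs, and its part in the top-bin ratios of these genes was not tested.

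Barcodes without a hashtag call entered no comparison, and some members were higher in them than in wild-type singlets before the other filters. The values after "against" are those of the wild-type and then the knockout singlets. At homeostasis Elane stood at 44.4 CPM against 30.3 and 31.15, and Ms4a3 at 13.1 against 10.1 and 10.6. After 5-FU Mpo stood at 166.5 against 131.0 and 93.99, and Elane at 77.5 against 32.2 and 47.4. Ms4a3 stood at 39.5 against 38.2 and 59.4, and was thus below the knockout singlets. The median depth of these barcodes was 5918 UMIs at homeostasis and 4162.5 after 5-FU, and their genotype is unknown. These differences were not tested.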

How the results depend on the processing

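No paired analysis was possible within a library because the labels give the genotypes no shared replicate numbers and each library holds 1 pool per genotype. The test over both libraries kept the library as a block. Mpo and Ctsg kept a lower level in the knockout under all 12 alternatives in each library, and Prtn3 under 11 at homeostasis and 12 after 5-FU. Their ratios ran from -1.21 to -0.31 and -1.66 to -0.63 for Mpo and from -1.95 to -0.53 and -1.52 to -0.36 for Ctsg. The log2 ratio of the sum without Prtn3 kept its direction, and that of the 5 genes summed did in all but 1. With the level of each genotype's own megakaryocyte-erythroid gate subtracted (chosen after the data were seen), these 2 sums were at -0.16 and 0.0339 at homeostasis, Prtn3 turned to 0.167, and the 5 genes summed were at -0.51 after 5-FU. With 1 gate level subtracted from both genotypes, as below, a lower knockout value can only become relatively lower, so that setting says nothing of whether the direction is stable. At homeostasis the 5 genes summed and the sum without Prtn3 stood at -0.31 and -0.76 as a mean of per-cell CPM, at -0.73 and -1.16 with free RNA subtracted at the level of the megakaryocyte-erythroid gate, and at -0.10 and -0.22 with equal cell shares in each axis bin (-0.73 for the sum without Prtn3 on an axis without Plac8 and Nkg7, chosen after the data were seen). They stood at -0.34 and -0.75 without the highest cell of each genotype, at -0.42 and -1.03 without the 10 highest (both chosen after the data were seen), at -0.44 and -0.91 when cells with under 80% of their hashtag UMIs on 1 tag were left out, and at -0.34 and -0.63 with no quality filter. After thinning the sum without Prtn3 was at -0.81. After 5-FU the same settings gave -0.44 and -1.15, -0.82 and -1.21, -0.33 and -0.70, -1.01 for the sum without Prtn3 without the highest cell, -0.50 and -1.25 without the 10 highest, -0.85 for the sum without Prtn3 with the 80% rule, -0.24 and -0.23 with no quality filter, -1.18 for the sum without Prtn3 after thinning, and -0.44 and -1.11 with equal shares on the axis without Plac8 and Nkg7. The cause of these changes was not tested.

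Elane turned to -1.15 at homeostasis without the UMIs of the 10 highest cells, here with no 0.5 added to the counts. It turned to -0.45 with the 80% rule and to -0.17 with no quality filter, and to 0.52 after 5-FU with no quality filter. Ms4a3 at homeostasis turned to -0.0296 with the 80% rule and -0.0124 with no quality filter, and after 5-FU (-0.05) it was at 0.0716 with the 80% rule at 0.58 with no quality filter and at 1.01 with each genotype's own gate level subtracted. In percentage points of cells, knockout minus wild type, the share with any member at homeostasis (-5.60) was -8.26 with a minimum of 2 UMIs and -8.03 with the 80% rule, and that with any but Prtn3 (-11.5) was -8.74 at 2500 UMIs and -6.47 with 2 UMIs. After 5-FU any member (-7.43) was at -0.0983 without thinning and -10.3 with 2 UMIs, and any but Prtn3 (-11.6) at -6.72 with 2 UMIs. Prtn3 after 5-FU turned to 0.447 points without thinning, where knockout cells were the deeper, and Ms4a3 to 0.326 points with no quality filter. Elane after 5-FU (-0.289) was at 0.0566 points with 2 UMIs.

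Cells with at least 2 of the 4 genes other than Prtn3 were 6.37% and 5.11% of cells in the homeostasis and 5-FU libraries, 12.4% and 9.80% without thinning, and 1.81% and 2.27% with 2 UMIs. Of Ctsg cells, 72.4% and 66.2% held Mpo without thinning and 52.9% did with 2 UMIs at homeostasis. In stem-gate cells the share with Mpo was 6.62% and 1.20% at 5 or more markers and 1.48% and 0.563% with 2 UMIs. The share with Prtn3 there was 86.6% at 5 or more markers after 5-FU, 41.2% and 65.8% with 2 UMIs, and 57.1% and 53.8% in the megakaryocyte-erythroid gate instead.

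The test over both libraries called 146 genes lower and 166 higher, against 88 and 112 with DESeq2, 68 and 89 with DESeq2 size factors in edgeR, 220 and 242 with library size scaling alone, 294 and 318 with no low-count filter, 89 and 112 with the 80% rule, 62 and 71 with no lineage removal and 63 and 73 with no quality filter. It called 2 members, and 1 with no lineage removal (Ctsg) and 1 with no quality filter (Mpo). Elane turned to -0.26 with the 80% rule and to -0.14 with no lineage removal, without a call. Elane had 199 thinned UMIs after 5-FU, and its place in the order and its ratio are limited by that depth.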
